A study of Mus musculus with 6 samples.

Results

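The ubiquitin-conjugating (Ube2) enzymes of developing red cells were compared between S3 and S1, a later and an earlier stage of erythroid precursors taken from the livers of mouse fetuses. Members were all genes whose single symbol in the platform's probe annotation starts with Ube2 and a further letter, which gave 33 genes, with 81 probe sets, of 18193 genes with a single symbol. The brightest probe set of each gene by its mean over the 6 arrays stood for the gene. Among the 33 are Ube2cbp, a ligase that binds an E2 rather than an E2 itself (now also named Ube3d), and the pseudogene Ube2d-ps. The 4 probe sets annotated to Ube2l3 list pseudogenes beside it and were left out by the rule, and Ube2m is not analysed here.

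S3 (3 arrays) and S1 (3 arrays) were sorted from Balb/C fetal livers on their staining for CD71, through which cells take up iron-loaded transferrin, for Ter119, which marks erythroid cells, and for markers of other lineages. No genotype, drug or transgene separates them, and each subset was collected on 3 separate days. The stage label gives embryonic day 13.5 for S3 and 12.5 for S1, whereas the source label gives 13.5 for both, so by the stage label embryo age and subset cannot be told apart. Values are the authors' log2 signals, and a gene is said to have risen, fallen or been called where limma's adjusted p (Benjamini-Hochberg over 11959 genes) was under 0.05.

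Ubiquitin, a small protein, is activated by an E1 enzyme, passed to the active cysteine of an E2 and joined to a target protein with the help of an E3 ligase. The E2 often decides which kind of chain is built, and a few E2s carry ubiquitin-like proteins such as NEDD8 or ISG15 instead. Maturing red cells use this system to clear ribosomes, unassembled globin chains and other proteins.

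Several quality measures touch the values below. Of 7 red cell maturation genes tested, 5 were higher in S3, led by Alas2, and of 5 progenitor genes 4 were lower in S3, led by Myb, so the subsets differed as labelled. The arrays also differed in how far signal reached toward the 5' end of transcripts: the actin control read lower at its 5' than at its 3' end by a log2 difference of -2.20 in S3 replicate 2, -2.08 in S1 replicate 1 and -2.59 in S1 replicate 2 (short arrays), but by only -0.45 in S3 replicate 1, -0.56 in S3 replicate 3 and -0.47 in S1 replicate 3 (long arrays). A second fit with short and long arrays as a block is given beside the members and the partner lists. In that fit the median change of all genes was -0.54 on the log2 scale, so a block change near -0.54 is near that of the median gene. Finally, all 11959 genes had a median change of -0.33 on the log2 scale, which was moved to -0.10 by centring each array on its median and to -0.07 by quantile normalization, so a change near -0.33 at the deposited scale is near that of the median gene.

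Of the 33 Ube2 genes 3 rose in S3 and 4 fell, while 26 were not called. Ube2l6, Ube2o and Ube2h rose, and Ube2e2, Ube2cbp, Ube2q2 and Ube2g1 fell. The risers were 9.09% of the family, against 2.53% of all genes called higher, and the fallers 12.1%, against 12.8% of all genes called lower. The share that fell was thus near the background. The family's median log2 change was -0.24, against -0.33 for all genes. It moved to -0.01 with median centring, to 0.01 with quantile normalization and to 0.13 with the block and median centring together, so the sign of this median depended on the scaling. All 33 genes passed the filter on low signal, and 30 read above background, the 95th percentile of bacterial control probe sets, on all 6 arrays. Beyond the calls, the S3 and S1 values did not overlap in 15 members (45.5%), against 35.3% of all genes; S3 was the higher subset in 6 of them (18.2%, background 5.81%) and the lower in 9 (27.3%, background 29.5%). With the block for short and long arrays 5 members were higher and 13 lower, against 5.81% and 41.2% of all genes. All 7 genes called without the block were also called with it. With median centring 4 were higher and 1 lower, against 4.0% and 8.13% of all genes. Higher genes thus made up 80% of the family's few calls, against 42.9% at the deposited scale. Over all genes they made up 33.0% of calls with median centring, against 16.5% at the deposited scale. With the block and median centring together 6 were higher and 7 lower, against 8.56% and 16.8% of all genes.

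**Figure D1:**
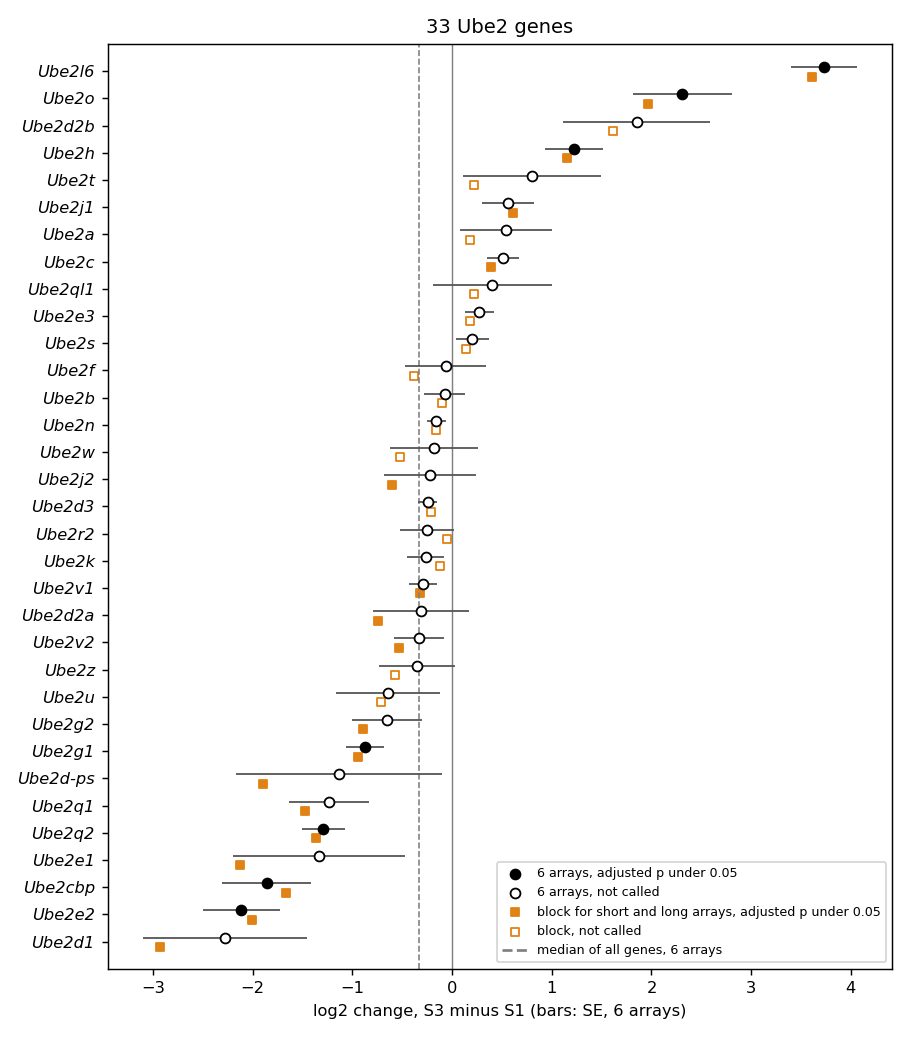
Log2 change, S3 minus S1, of the 33 Ube2 genes over 6 arrays (circles, bars give the SE; filled where the adjusted p was under 0.05) and with short and long arrays as a block (squares, filled likewise). Ube2l6 stands at the top with 3.73 and Ube2d1 at the bottom with -2.27, and the dashed line marks the median of all genes at -0.33.

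Ube2l6, the E2 that carries the ubiquitin-like protein ISG15, had the largest change among the 33. It read 8.68, 8.67 and 8.69 (log2 signal) on the 3 S3 arrays, against 4.60, 4.86 and 5.39 on the 3 S1 arrays. The S3 arrays were nearly equal and all far above S1, and no values overlapped. The mean was 8.68 ± 0.01 in S3 and 4.95 ± 0.40 in S1 (SD, n = 3 arrays each), a log2 change of 3.73 ± 0.33 (SE, limma adjusted p = 0.00279), or 13.2-fold. Among all 11959 genes it ranked 50 by size of rise and 26 by p. The change was 3.29 within the long arrays and 3.94 within the short arrays. Leaving out each array in turn gave 3.55 to 3.95, called in 6 of 6 fits. It has 1 probe set on the array.

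Ube2o, a large enzyme that acts as E2 and E3 in one chain and marks ribosomal proteins and free globin in mouse reticulocytes, also rose. Its log2 signal was 7.23, 6.28 and 7.10 on the S3 arrays, against 4.31, 4.0 and 5.36 on the S1 arrays. The subsets did not overlap, and in both the long arrays read higher than the short ones. The log2 change was 2.31 ± 0.50 (SE, limma adjusted p = 0.0223), or 4.96-fold, and 1.96 with the block (adjusted p = 1.66e-04). The call was lost without S3 replicate 1 (2.13, adjusted p = 0.0845), S3 replicate 3 (2.20, adjusted p = 0.0904), S1 replicate 1 (2.19, adjusted p = 0.0851) or S1 replicate 2 (2.03, adjusted p = 0.0825).

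Ube2h, the E2 that serves the CTLH ligase complex in red cell maturation, was the third riser. It read 8.50, 8.24 and 8.42 on the S3 arrays, against 7.48, 6.73 and 7.28 on the S1 arrays, again without overlap. The log2 change was 1.22 ± 0.29 (SE, limma adjusted p = 0.0291), or 2.33-fold. Its other 3 probe sets changed by 1.49 ± 0.49, 1.6 ± 0.49 and 1.00 ± 0.60 (SE, adjusted p = 0.104, 0.0844 and 0.381 over all probe sets), all of the same sign and none called. The mean over its probe sets missed the threshold (1.33, adjusted p = 0.0971), as did the short arrays alone (1.14, with 1 S3 array). The call was also lost without S3 replicate 1 (1.17, adjusted p = 0.110), S3 replicate 3 (1.21, adjusted p = 0.110), S1 replicate 1 (1.38, adjusted p = 0.0625) or S1 replicate 2 (1.01, adjusted p = 0.0892). With the block the change of Ube2h was 1.16 (adjusted p = 0.00133). These arrays read RNA pooled over sorted cells, so a change in RNA per cell and a change in the share of cells that make it cannot be told apart.

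**Figure D2:**
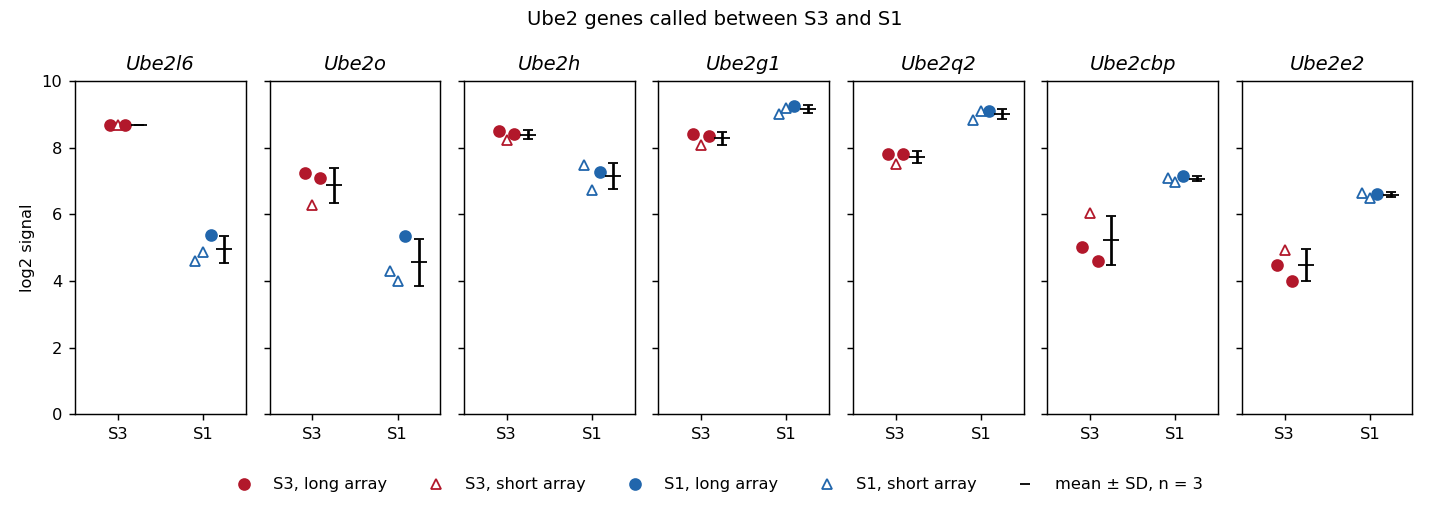
Log2 signal on each array of the 7 called Ube2 genes, S3 left of S1; filled circles are long arrays, open triangles short arrays, and bars give mean ± SD over 3 arrays. The 3 genes on the left rose and the 4 on the right fell, with no overlap between subsets; heights are not comparable between genes, since each probe set has its own brightness.

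Start regions of 3 called genes are shown, those of Ube2l6 and Ube2h for the risers and of Ube2e2 for the fallers. RefSeq windows (GRCm38.p6, 250 bases before to 50 after a start) were found for 27 of the 33 genes, with 36 windows in all, and for 6 of the 7 called genes; none was found for Ube2o. Both Ube2h starts, 60736 bases apart, and both Ube2e2 starts are printed, and Ube2c stands beside them as a cell cycle member. Capitals mark matches to 5 motifs searched on both strands. AGATAA is bound by GATA factors. The letters CACCC are bound by Krüppel-like factors. NF-Y binds the letters CCAAT, and TTTGAA is the cell cycle homology region. The interferon response element was searched as a pair of GAAA with 2 free bases between them.
Ube2l6, chr2:84798578-84798877, plus strand: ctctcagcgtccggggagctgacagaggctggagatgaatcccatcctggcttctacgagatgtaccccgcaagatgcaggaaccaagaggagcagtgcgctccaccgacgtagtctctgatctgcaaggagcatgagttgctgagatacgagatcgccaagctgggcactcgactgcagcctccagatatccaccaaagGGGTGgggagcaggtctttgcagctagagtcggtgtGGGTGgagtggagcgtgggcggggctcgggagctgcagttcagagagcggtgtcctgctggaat
Ube2h upstream start, chr6:30304490-30304789, minus strand: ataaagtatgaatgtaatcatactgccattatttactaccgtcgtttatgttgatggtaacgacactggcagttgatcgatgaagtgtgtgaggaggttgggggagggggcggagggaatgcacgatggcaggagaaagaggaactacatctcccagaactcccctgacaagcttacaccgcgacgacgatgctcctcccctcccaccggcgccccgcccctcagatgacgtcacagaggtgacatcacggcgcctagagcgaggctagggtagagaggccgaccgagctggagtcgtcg
Ube2h downstream start, chr6:30243754-30244053, minus strand: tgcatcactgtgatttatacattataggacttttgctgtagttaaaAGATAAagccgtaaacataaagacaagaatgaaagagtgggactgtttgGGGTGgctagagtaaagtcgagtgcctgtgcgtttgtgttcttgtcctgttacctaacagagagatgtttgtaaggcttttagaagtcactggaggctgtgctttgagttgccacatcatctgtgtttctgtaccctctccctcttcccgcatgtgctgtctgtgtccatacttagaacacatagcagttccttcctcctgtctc
Ube2e2 upstream start, chr14:18893722-18894021, minus strand: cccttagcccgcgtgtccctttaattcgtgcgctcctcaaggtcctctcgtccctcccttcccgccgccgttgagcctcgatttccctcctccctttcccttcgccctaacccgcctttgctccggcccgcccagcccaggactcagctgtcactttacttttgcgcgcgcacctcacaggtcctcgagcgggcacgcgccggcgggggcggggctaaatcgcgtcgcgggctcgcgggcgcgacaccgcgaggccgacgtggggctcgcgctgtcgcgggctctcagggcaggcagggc
Ube2e2 downstream start, chr14:18893364-18893663, minus strand: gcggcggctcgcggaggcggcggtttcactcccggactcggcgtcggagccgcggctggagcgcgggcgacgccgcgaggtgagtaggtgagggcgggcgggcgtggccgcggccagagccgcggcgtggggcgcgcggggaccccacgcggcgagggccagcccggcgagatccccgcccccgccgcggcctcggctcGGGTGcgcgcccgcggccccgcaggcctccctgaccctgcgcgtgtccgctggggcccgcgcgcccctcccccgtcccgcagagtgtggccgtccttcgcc
Ube2c, chr2:164769679-164769978, plus strand: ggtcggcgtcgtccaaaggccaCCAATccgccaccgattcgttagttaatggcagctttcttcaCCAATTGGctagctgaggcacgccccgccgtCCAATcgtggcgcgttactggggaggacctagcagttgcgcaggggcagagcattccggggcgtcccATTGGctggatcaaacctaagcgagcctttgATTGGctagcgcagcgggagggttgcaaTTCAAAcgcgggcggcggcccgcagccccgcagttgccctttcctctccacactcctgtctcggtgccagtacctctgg

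The downstream Ube2h window was the only one of the 36 member windows with AGATAA, which occurred in 11.2% of all 32851 windows. That window also holds CACCC on the other strand and has only 4 CpG pairs, against 21 in the upstream Ube2h window. The array values do not separate the 2 starts. The Ube2l6 window holds CACCC 2 times on the other strand and no interferon motif, which no member window held and 3.44% of all windows did. The upstream Ube2e2 window holds none of the 5 motifs, and the downstream one holds CACCC and 55 CpG pairs. CACCC was found in 2 of the 3 windows of risers and in 3 of the 6 windows of fallers. It occurred in 69.4% of member windows, against 57.5% of all windows. The Ube2c window holds CCAAT in 6 places, 2 of them overlapping, and TTTGAA once on the other strand. CCAAT was present in 19.4% of member windows, against 37.4% of all windows, and TTTGAA in 11.1%, against 17.9%. Member windows were rich in CpG, the base pair that DNA methylation acts on, with a median of 29.5 CpG pairs, against 7 in all windows. The 3 windows of risers, from Ube2l6 and Ube2h alone, had 4 to 21 CpG pairs. The 6 windows of fallers, with both starts of Ube2q2 and of Ube2e2 among them, had 20 to 55. Whether risers and fallers differ in CpG was not tested.

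Ube2 enzymes of broad use, those that work with many ligases, include the D and E families and Ube2w. Of 8 such genes, 1 fell and none rose, against 12.8% of all genes called lower. With the block 4 of the 8 were lower, against 41.2% of all genes, and none was higher. Ube2e2 read 4.49, 4.94 and 4.0 on the S3 arrays, against 6.64, 6.50 and 6.63 on the S1 arrays, so that S1 was tight and every S3 array lay below it. The log2 change was -2.11 ± 0.39 (SE, limma adjusted p = 0.0131), and -2.01 with the block (adjusted p = 3.30e-04). The call was lost with quantile normalization (-1.75, adjusted p = 0.0544) and without S3 replicate 1, S3 replicate 3, S1 replicate 1 or S1 replicate 2 (adjusted p = 0.0508, 0.0615, 0.0598 and 0.0528).

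Of its close relatives, neither was called over 6 arrays. Ube2e3, an E2 of the same family, read 9.87, 9.66 and 9.89 on the S3 arrays, against 9.45, 9.39 and 9.75 on the S1 arrays (log2 change 0.28 ± 0.15 (SE), limma adjusted p = 0.271). Ube2e1 read 8.25, 5.45 and 7.94 on the S3 arrays, against 7.80, 7.89 and 9.96 on the S1 arrays; the short arrays lay below the long ones by 2.64 in S3 and 2.12 in S1. Over 6 arrays Ube2e1 was not called (-1.34 ± 0.86, limma adjusted p = 0.370), whereas with the block it was lower in S3 (-2.13 ± 0.18, adjusted p = 1.68e-05), and the mean over its probe sets also passed (-1.68, adjusted p = 0.0477). The change of Ube2e1 was -1.87 within the long arrays, with 1 S1 array, and -2.39 within the short arrays, with 1 S3 array. Leaving out each array in turn gave -1.86 to -0.46, called in 0 of 6 fits. Ube2e2 minus Ube2e1 within an array differed between S3 and S1 by -0.77, with overlapping values (exact two-sided permutation p = 0.80). Taken within each array, where any scaling of the array drops out, Ube2e2 minus Ube2e3 was -5.38, -4.72 and -5.89 in S3, against -2.81, -2.89 and -3.13 in S1. That difference of differences was -2.39 (exact two-sided permutation p = 0.10, the smallest that 3 against 3 arrays allows; adjusted p = 0.50 over 10 pairs of relatives).

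The D family holds E2s that many RING ligases use. Ube2d1 read 3.70, 1.6 and 2.56 on the S3 arrays, against 4.0, 4.20 and 6.48 on the S1 arrays, not overlapping but widely spread (log2 change -2.27 ± 0.82 (SE), limma adjusted p = 0.112). With the block it was lower in S3 (-2.92 ± 0.44, adjusted p = 4.20e-04). Ube2d3, by contrast, read 10.22, 10.33 and 10.15 on the S3 arrays, against 10.42, 10.58 and 10.43 on the S1 arrays. Its change of -0.24 ± 0.09 (SE, limma adjusted p = 0.133) lay close to the median of all genes, and its other 6 probe sets changed by -0.75 to 0.0033. Ube2d1 minus Ube2d3 within an array was -6.52, -8.73 and -7.59 in S3, against -6.42, -6.38 and -3.95 in S1 (exact permutation p = 0.10). These 2 pairs were the only ones of the 10 whose subsets did not overlap.

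Ube2d2a, a close relative of Ube2d3, was not called (-0.31 ± 0.48, limma adjusted p = 0.744) and was lower with the block (-0.74, adjusted p = 0.00295). With the block and median centring together Ube2d2a was not called (-0.29, adjusted p = 0.499). Ube2d2b read 3.33, 3.50 and 4.41 on the S3 arrays, against 0.34, 2.74 and 2.61 on the S1 arrays, and 1 S1 array was not above background (log2 change 1.85 ± 0.74 (SE), limma adjusted p = 0.144). It passed with median centring (2.08, adjusted p = 0.0465) and with quantile normalization (2.17, adjusted p = 0.0470), but not with the block alone (1.61, adjusted p = 0.0755); with the block and median centring together it passed (2.06, adjusted p = 0.00463). Ube2w, which puts ubiquitin on the N-terminus of proteins, changed by -0.18 ± 0.44 (SE, adjusted p = 0.847). The pseudogene Ube2d-ps changed by -1.13 ± 1.03 (SE, adjusted p = 0.550) and was not above background on S3 replicate 2. It was lower with the block (-1.89, adjusted p = 0.0296) and with the block and median centring (-1.44, adjusted p = 0.0372).

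Among E2s that build chains on targets of cullin ligases or by themselves, Ube2g1 fell and Ube2r2 and Ube2k were not called. Ube2g1 read 8.42, 8.07 and 8.34 on the S3 arrays, against 9.02, 9.19 and 9.25 on the S1 arrays. Both subsets were tight and apart, with a log2 change of -0.87 ± 0.19 (SE, limma adjusted p = 0.0225). A second probe set of Ube2g1 changed by -1.61 ± 0.38 (SE, adjusted p = 0.0391 over all probe sets). Relative to the median of all genes the change was only -0.54. The call was lost with median centring (-0.64, adjusted p = 0.240), with quantile normalization (-0.59, adjusted p = 0.0613), with the block and median centring (-0.50, adjusted p = 0.190), without an intensity trend (adjusted p = 0.0619) and without any 1 array other than S3 replicate 2 (adjusted p up to 0.0913). Ube2r2, a relative of Cdc34, changed by -0.25 ± 0.27, and Ube2k, which builds ubiquitin chains without a separate ligase, by -0.26 ± 0.19 (SE, adjusted p = 0.614 and 0.418).

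Of the Q family, E2s with a long N-terminal extension, Ube2q2 fell and Ube2q1 was not called. Ube2q2 read 7.82, 7.5 and 7.82 on the S3 arrays, against 8.83, 9.10 and 9.09 on the S1 arrays, a log2 change of -1.29 ± 0.21 (SE, limma adjusted p = 0.00933). Of the 4 fallers it had the smallest p, and it missed the threshold only with median centring (-1.06, adjusted p = 0.0521) and without S1 replicate 2 (-1.24, adjusted p = 0.0539). Ube2q1 read 6.52, 5.73 and 6.08 on the S3 arrays, against 6.93, 7.17 and 7.94 on the S1 arrays, and was not called over 6 arrays (-1.23 ± 0.40, limma adjusted p = 0.0826) but was lower with the block (-1.48, adjusted p = 4.11e-04). Within arrays Ube2q1 minus Ube2q2 differed between S3 and S1 by 0.06 (exact permutation p = 0.70). Ube2cbp, the E2-binding ligase, read 5.02, 6.04 and 4.59 on the S3 arrays, against 7.10, 6.98 and 7.14 on the S1 arrays. Its fall of -1.86 ± 0.45 (SE, limma adjusted p = 0.0322) stood in arrays of both kinds (-2.34 in the long and -0.999 in the short), and the long S3 arrays read lower than the short one. It was lost with median centring, with quantile normalization, in the short arrays alone and without any 1 array other than S3 replicate 2 (adjusted p up to 0.127 over these). Ube2ql1 and Ube2u, both dim, changed by 0.40 ± 0.60 and -0.64 ± 0.52 (SE, adjusted p = 0.733 and 0.492).

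None of the 3 E2s of the endoplasmic reticulum, which help degrade misfolded proteins drawn out of it, was called. Ube2j1 read 7.83, 7.83 and 7.64 on the S3 arrays, against 7.41, 7.11 and 7.08 on the S1 arrays, apart but by a small amount (0.56 ± 0.26 (SE), limma adjusted p = 0.207). Its second probe set changed by 1.17 ± 0.37 (SE, adjusted p = 0.0932 over all probe sets), and with the block the gene was higher (0.61, adjusted p = 0.0177). Ube2g2 changed by -0.65 ± 0.35 and Ube2j2 by -0.22 ± 0.46 (SE, adjusted p = 0.271 and 0.817). Both were lower with the block (-0.89, adjusted p = 0.00205, and -0.61, adjusted p = 0.0140). Neither was called with the block and median centring together (-0.44, adjusted p = 0.318, and -0.16, adjusted p = 0.768). Within arrays Ube2j1 minus Ube2j2 differed between S3 and S1 by 0.78 (exact permutation p = 0.40).

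The 2 E2s of the anaphase-promoting complex (APC/C), the ligase that drives exit from mitosis, were not called. Ube2c, which starts chains on APC/C targets, read 10.53, 10.24 and 10.49 on the S3 arrays, against 9.78, 9.73 and 10.21 on the S1 arrays. Every S3 array was above every S1 array, though by little (0.51 ± 0.16 (SE), limma adjusted p = 0.0691). The threshold was passed in 5 of 18 other settings. These were the block (0.39, adjusted p = 0.00551), the block with median centring (0.84, adjusted p = 0.00456), quantile normalization (0.63, adjusted p = 0.0121), the replicate block (adjusted p = 0.0379) and leaving out S1 replicate 3 (0.66, adjusted p = 0.0248). Median centring alone (0.74, adjusted p = 0.128) and the fit without an intensity trend (adjusted p = 0.256) were among those that missed it. Ube2s, which extends the chains, changed by 0.20 ± 0.16 (SE, adjusted p = 0.497) in its brightest probe set. A dimmer probe set of Ube2s read 4.63, 5.54 and 4.74 on the S3 arrays, against 2.34, 2.29 and 2.58 on the S1 arrays, a change of 2.56 ± 0.46 (SE, limma adjusted p = 0.0163 over all probe sets). Which transcripts that dimmer probe set reads was not tested. The mean of both probe sets was called (1.38, adjusted p = 0.0359).

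The 6 E2s of DNA damage tolerance and repair were not called. Ube2t, which works with the Fanconi anaemia ligase, read 7.54, 6.21 and 7.49 on the S3 arrays, against 5.49, 5.59 and 7.75 on the S1 arrays. Its long arrays read alike in both subsets and its short arrays lower, by 1.30 in S3 and 2.21 in S1 (log2 change 0.80 ± 0.69 (SE), limma adjusted p = 0.526). Ube2a and Ube2b, the mouse forms of yeast Rad6, changed by 0.54 ± 0.46 and -0.07 ± 0.21 (SE, adjusted p = 0.517 and 0.866). Ube2n, which builds signalling chains together with Ube2v1 or Ube2v2, read 10.26, 10.24 and 10.15 on the S3 arrays, against 10.25, 10.46 and 10.41 on the S1 arrays (-0.16 ± 0.10 (SE), adjusted p = 0.347). Its partners changed by -0.29 ± 0.14 (Ube2v1) and -0.33 ± 0.25 (Ube2v2) (SE, adjusted p = 0.215 and 0.461). Both were lower with the block (-0.32, adjusted p = 0.0410, and -0.54, adjusted p = 0.00370), where all genes had a median of -0.54. Neither was called with the block and median centring together (0.13, adjusted p = 0.785, and -0.09, adjusted p = 0.852). Of E2s for ubiquitin-like proteins or for the second ubiquitin E1, Ube2f (NEDD8) changed by -0.06 ± 0.41 and Ube2z, which is charged by Uba6, by -0.35 ± 0.38 (SE, adjusted p = 0.946 and 0.620).

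**Figure D3:**
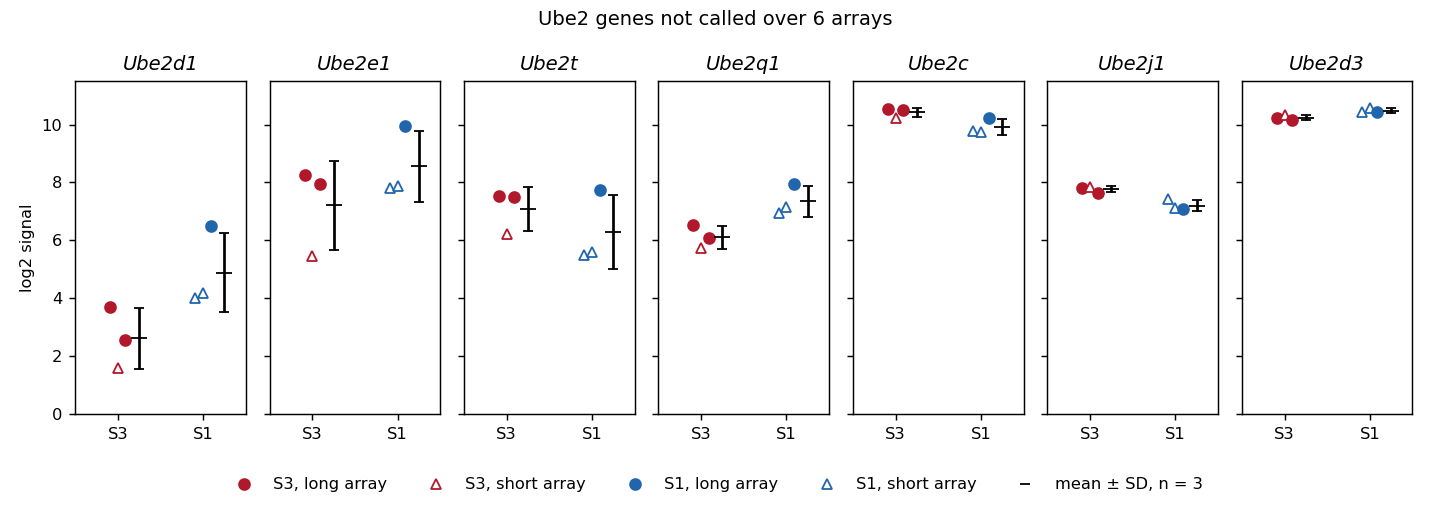
Log2 signal on each array of 7 Ube2 genes not called over 6 arrays, S3 left of S1; filled circles are long arrays, open triangles short arrays, and bars give mean ± SD over 3 arrays. In Ube2d1, Ube2e1 and Ube2t the short arrays of each subset lie below its long arrays, whereas in Ube2c, Ube2j1 and Ube2d3 the classes differ by at most 0.46.

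Across the family the long arrays read higher than the short arrays in both subsets for 24 of the 33 genes. The median long-minus-short difference of the members was 0.37 in S3 and 0.33 in S1, against 0.52 and 0.61 over all genes. Only 3 members (Ube2d1, Ube2e1 and Ube2t, named after their values were seen) differed by more than 1 log2 unit in this way in both subsets. In 24 members with several probe sets, 46 dimmer probe sets passed the filter, of which 33 had the same sign as the brightest one. Among these 46, 2 were called, those of Ube2g1 and Ube2s, and none was called against its gene's brightest probe set.

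E1 enzymes of ubiquitin and ubiquitin-like proteins moved in both directions. Of 6 tested, 1 rose, 2 fell and 3 (Nae1, Uba3 and Atg7) were not called, against 2.53% of all genes called higher and 12.8% called lower. Uba1, the main ubiquitin E1, was not among the 6 and is not analysed here. With the block 1 was higher and 4 lower, against 5.81% and 41.2% of all genes. Uba7, the E1 that charges Ube2l6 with ISG15, read 7.25, 6.06 and 7.31 on the S3 arrays, against 3.79, 3.60 and 5.04 on the S1 arrays (log2 change 2.73 ± 0.56 (SE), limma adjusted p = 0.0190). It was higher on every S3 array, as Ube2l6 was, and was also higher with the block (2.30, adjusted p = 6.19e-05). Uba6, the second ubiquitin E1, fell by 1.69 ± 0.29 and Sae1, a subunit of the SUMO E1, by 1.24 ± 0.24 on the log2 scale (SE, limma adjusted p = 0.0101 and 0.0161), and with the block the changes were -1.86 and -1.40 (adjusted p = 1.76e-05 and 3.33e-05). The rest of the ISG15 system did not move one way: of its 4 genes tested, Uba7 rose, Trim25, a ligase for ISG15, fell (-1.30 ± 0.17 (SE), limma adjusted p = 0.00453), and 2 were not called. With the block 1 of the 4 was higher and 1 lower (Trim25 -1.29, adjusted p = 3.32e-05). Of all genes 2.53% were called higher and 12.8% lower over 6 arrays, and 5.81% and 41.2% with the block. Isg15 itself is not analysed here. Of 10 genes for ubiquitin and ubiquitin-like proteins, only Sumo3 was called (-0.91 ± 0.15 (SE), adjusted p = 0.00962), against 12.8% of all genes called lower. In the block fit 4 of the 10 were higher and 3 lower (Sumo3 -0.86, adjusted p = 3.29e-04), against 5.81% and 41.2% of all genes.

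The CTLH complex, the ligase with which Ube2h works, rose in part. Of its 11 genes 3 rose, none fell and 8 were not called, against 2.53% of all genes called higher. Its subunit Ypel5 read 9.35, 9.61 and 9.28 on the S3 arrays, against 7.28, 7.78 and 6.82 on the S1 arrays (log2 change 2.12 ± 0.29 (SE), limma adjusted p = 0.00492). Ranbp10, one of its scaffold proteins, read 9.13, 8.27 and 9.28 on the S3 arrays, against 6.01, 5.34 and 7.17 on the S1 arrays (2.72 ± 0.52 (SE), adjusted p = 0.0147), and Gid8 rose by 0.52 ± 0.11 (SE, adjusted p = 0.0210). Of the 8 not called, Armc8 (-1.24 ± 0.35 (SE), adjusted p = 0.0533), Rmnd5b (-0.89), Maea (-0.51), Gid4 (-0.49) and Ranbp9 (-0.21) had negative changes. Wdr26 (1.07), Rmnd5a (0.44) and Mkln1 (0.31) had positive ones. Over the 11 genes the median change was 0.31 (log2), against -0.33 for all genes. With the block 4 of its genes were higher and 4 lower, against 5.81% and 41.2% of all genes, and Ypel5 (2.29), Ranbp10 (2.31) and Gid8 (0.49) were among the higher ones (adjusted p = 1.03e-05, 3.29e-05 and 0.00203).

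Other partners showed few calls over 6 arrays and more with the block. Of 17 genes of the APC/C and its regulators, only Cdc23 fell (-0.80 ± 0.22 (SE), limma adjusted p = 0.0472) and none rose. None of 15 tested ligases and adaptors of degradation at the endoplasmic reticulum was called, with Sel1l the nearest (-0.82 ± 0.25 (SE), adjusted p = 0.0682) and Derl1 next (-0.62 ± 0.24, adjusted p = 0.135). None of 18 genes of DNA damage ubiquitination was called, with Shprh (-1.01 ± 0.45) and Hltf (-0.58 ± 0.27) nearest (SE, adjusted p = 0.187 and 0.211). Of 14 cullin ligase core genes only Cul4b fell (-0.66 ± 0.13 (SE), adjusted p = 0.0167), and of 31 proteasome genes only Psmd11 (-1.03 ± 0.17 (SE), adjusted p = 0.00923). Of 11 SUMO ligases and proteases 2 fell, Senp3 and Senp5. Of 8 E2-like genes outside the Ube2 names 2 fell, Atg10 and Atg3, both enzymes that conjugate autophagy proteins (-2.21 ± 0.46 and -1.05 ± 0.28 (SE), adjusted p = 0.0197 and 0.0423). All these counts compare with 12.8% of all genes called lower. With the block more of them were lower, as were 41.2% of all genes. The counts were then 5 lower and 1 higher of 17 for the APC/C, 6 lower of 15 for degradation at the endoplasmic reticulum and 6 lower of 18 for DNA damage ubiquitination. They were 7 lower of 14 for the cullin cores, 6 of 31 for the proteasome, 7 of 11 for the SUMO ligases and proteases and 4 of 8 for the E2-like genes. Among the genes named, Sel1l (-0.96, adjusted p = 5.78e-04), Derl1 (-0.78, adjusted p = 0.00174), Shprh (-1.35, adjusted p = 3.28e-04) and Hltf (-0.75, adjusted p = 0.00290) were lower in S3 with the block. Cdc23 (-0.74), Cul4b (-0.62) and Psmd11 (-0.96) were lower with the block too (adjusted p = 0.00224, 9.43e-04 and 2.38e-04).

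**Figure D4:**
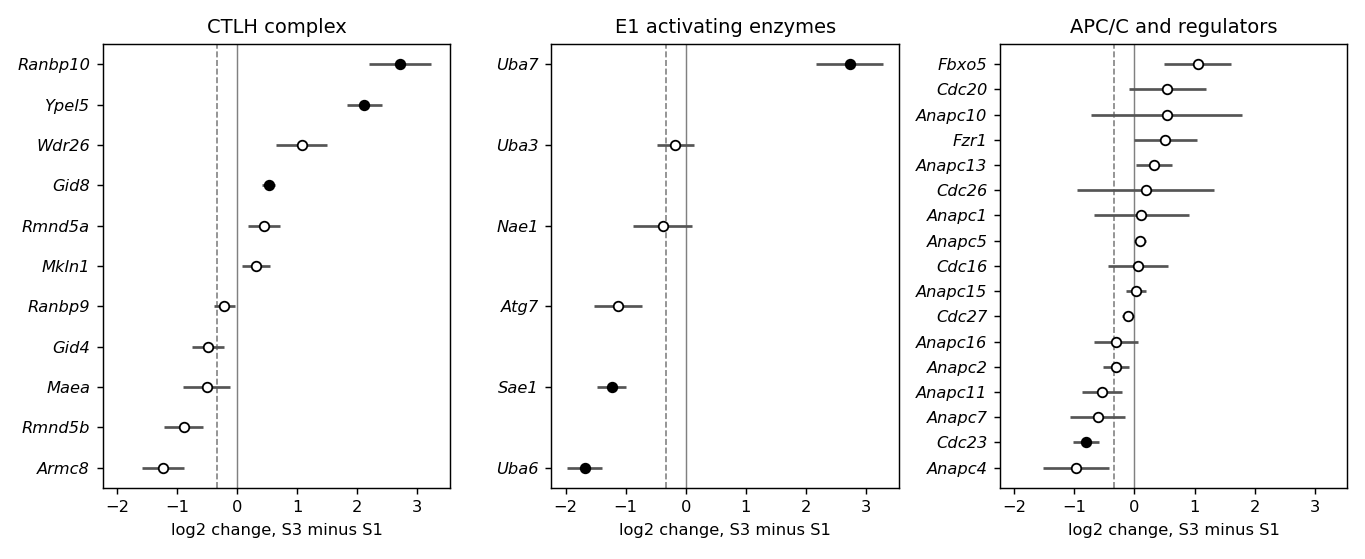
Log2 change, S3 minus S1, with its SE for tested genes of the CTLH complex, the E1 enzymes and the APC/C with its regulators; filled circles had an adjusted p under 0.05 and the dashed line is the median of all genes at -0.33. Ranbp10 (2.72), Ypel5 (2.12) and Uba7 (2.73) stand out to the right and Uba6 (-1.69) to the left.

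Markers of other cell types were read beside these values. Of 5 megakaryocyte markers 1 was higher, Vwf (2.72 ± 0.60 (SE), limma adjusted p = 0.0244), against 2.53% of all genes. Pf4 (1.84), Ppbp (1.82) and Gp9 (1.74) also had positive changes and Itga2b (-0.31) a negative one, none of them called. With the block 4 of the 5 were higher (Vwf 2.35, adjusted p = 0.00217), against 5.81% of all genes. Over the 5 the median change was 1.82 on the log2 scale, against -0.33 for all genes, and the summed log2 level of the list was 8.34 to 8.53 on the S3 arrays, against 5.84 to 7.38 on the S1 arrays. Of 4 granulocyte and monocyte markers tested 1 was lower, Prtn3 (-2.94 ± 0.54 (SE), adjusted p = 0.0127), against 12.8% of all genes. Prtn3 was the 1 marker of this list called with the block as well (-2.72, adjusted p = 0.00229), where 41.2% of all genes were lower. S100a8 (1.57 ± 1.33), S100a9 (2.46 ± 2.20) and Mpo (-0.58 ± 1.00) were not called (SE, adjusted p = 0.515, 0.541 and 0.773). Over the 4 the median change was 0.50, and summed levels were 3.05 to 7.11 in S3 and 4.13 to 6.59 in S1. None of 6 macrophage, 8 hepatoblast and 3 endothelial markers tested was called over 6 arrays. Of the 8 hepatoblast markers, Alb (1.34), Afp (0.87), Dlk1 (2.03), Ttr (1.22) and Apoa2 (1.22) had positive changes over 6 arrays. Apoa1 (-0.36), Hnf4a (-0.82) and Krt18 (-0.59) had negative ones. With the block 2 of the 8 were higher, Ttr (1.10, adjusted p = 0.00816) and Apoa2 (0.97, adjusted p = 0.0493), against 5.81% of all genes. No macrophage or endothelial marker was called with the block. Summed levels of the macrophage list were 5.25 to 6.46 in S3 and 4.92 to 6.90 in S1. For the hepatoblast list they were 8.04 to 10.07 in S3 and 8.24 to 8.57 in S1. For the endothelial list they were 2.12 to 3.79 in S3 and 3.30 to 3.51 in S1. No lymphoid marker passed the filter on low signal. Whether cells of these kinds had a part in the Ube2 changes was not tested.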

How the data were processed

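RNA of sorted S3 and S1 cells was amplified with the Ovation system, tagged with biotin and hybridised to Affymetrix mouse arrays, per the labels' protocols. MAS5 signals were scaled by the authors to the mean of 3 internal control transcripts (18S rRNA, Gapdh and actin), as the design text says; which MAS5 release was used is not given in the sources used here. Values deposited by the authors are on a log2 scale, with the base inferred from their size, since some lie below 0. They were used as deposited.

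Of 45101 probe sets, 64 were controls, 34945 had a single symbol, 932 several and 9160 none. Genes were kept where the mean of their brightest probe set lay above the 40th percentile of non-control probe sets, which left 11959. The difference between S3 and S1 was tested two-sided in limma 3.58.1 under R 4.3.3 (lmFit, then eBayes with trend, 4 residual and 3.41 prior degrees of freedom); the fit was checked on simulated arrays. The block fit had 3 residual and 7.30 prior degrees of freedom, and the block with median centring 3 and 212. Adjusted p values of the block with median centring thus rest almost wholly on variance pooled over genes. The long arrays alone had 1 residual and 10.5 prior degrees of freedom, and the short arrays alone 1 and 10.8. Probe set values were adjusted over all single-symbol probe sets above the filter. Background was the 95th percentile per array of 27 bacterial control probe sets (log2 1.01 to 1.74). No detection calls were used, and the number of arrays limits the precision.

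The members and lists were chosen with earlier results of these data known. All members may be named; from each partner list the called genes with the smallest p, up to 4, or the nearest 2 where none was called. Genes without a probe set of a single symbol are not analysed here. The alternatives were other scalings, filters, an added constant, no intensity trend, the mean over probe sets, a replicate block, arrays split at -1.5 on the actin 5' minus 3' difference, as a block or alone, and leaving out each array.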

Additional observations from a re-analysis of the deposited data

How the results depend on the processing

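Of 591 values of single Ube2 genes under the 18 other settings, 477 kept direction and call, 34 lost the call, 41 gained it and 39, of 16 uncalled genes, turned sign without being called. Ube2l6 was called in 18 of 18 settings, Ube2q2 in 16, Ube2o in 14, Ube2e2 in 13, Ube2h in 12, Ube2cbp in 10 and Ube2g1 in 9. None of these 7 turned sign in any setting. Counts (higher and lower) that moved by over 1.5 times from 3 and 4 for the family and from 302 and 1533 for all genes were as follows; unless shown by the settings themselves, the cause was not tested. Quantile normalization gave 6 and 1 members, and 698 higher genes in all. Median centring gave 1 lower member, and 478 and 972 genes. The block for short and long arrays gave 5 and 13 members, and 695 and 4922 genes; with median centring it gave 6 and 7 members, and 1024 higher genes. The long arrays alone gave 13 lower members, and 617 and 4151 genes, and the short arrays alone 9 lower members, and 2601 lower genes; each lone array is assumed to vary like the others. The mean over probe sets gave 991 lower genes. Leaving out 1 array gave 1 to 4 higher and 0 to 4 lower members, and 119 to 370 higher and 541 to 1273 lower genes. Without S1 replicate 2 no member was lower in limma's adjusted test, and 6 had an unadjusted p under 0.05. The family had 1 higher and 1 lower member without S3 replicate 1, S3 replicate 3 or S1 replicate 1, and 4 and 2 without S1 replicate 3. The replicate block stayed within 1.5 times of each count, with 4 and 4 members and 412 and 1897 genes; deviations of same-numbered arrays correlated at 0.02, 0.39 and 0.41 over probe sets, not every S3 array correlated best with the S1 array of its own number, and the numbers were not taken as a pairing. Higher genes made up 16.5% of all calls, against 33.0% with median centring and 38.2% with quantile normalization. Sign turns among uncalled genes (log2 change) were these. With median centring: Ube2b 0.16, Ube2f 0.17, Ube2j2 0.0091, Ube2n 0.075, Ube2w 0.052. With quantile normalization: Ube2b 0.25, Ube2f 0.23, Ube2j2 0.085, Ube2r2 0.037, Ube2w 0.12, Ube2z 0.0083. With the mean over probe sets: Ube2b 0.45, Ube2d2a 0.15, Ube2f 0.11, Ube2j2 0.35, Ube2z 0.26. With the class block and median centring: Ube2b 0.34, Ube2d3 0.24, Ube2f 0.070, Ube2k 0.33, Ube2n 0.29, Ube2r2 0.40, Ube2v1 0.13. In the long arrays alone: Ube2b 0.020, Ube2s -0.0080, Ube2t -0.24, Ube2u 0.021. In the short arrays alone: Ube2ql1 -0.30. Leaving out 1 array gave ranges that span 0: Ube2b -0.16 to 3.9e-04, Ube2d-ps -1.82 to 0.11, Ube2d2a -0.61 to 0.21, Ube2f -0.28 to 0.36, Ube2j2 -0.50 to 0.24, Ube2ql1 -0.018 to 0.76, Ube2w -0.46 to 0.27.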
